A study of Rattus norvegicus with 12 samples.

Results

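The response of the colon to hypoxic-ischemic brain damage (HI) was set against the response of the hippocampus, gene by gene, in neonatal rats. For each gene, HI minus sham was taken on the log2(FPKM + 1) scale within each tissue, and the hippocampus response was subtracted from the colon response. A positive tissue difference thus means that HI libraries stood higher against their shams in the colon than in the hippocampus. FPKM is the number of fragments per kilobase of a transcript, relative to all that mapped. Of the 13130 genes listed for both tissues, the 13015 that reached 1 FPKM in 3 or more libraries were tested. Of these, 11809 averaged at least 1 FPKM in both tissues, 686 averaged under 1 FPKM in the hippocampus and 570 averaged under 1 FPKM in the colon.

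There were 12 libraries in 4 groups of 3, namely colon of HI rats, colon of sham rats, hippocampus of HI rats and hippocampus of sham rats. The labels name the injury, the sham control and the tissue. Strain, age in days, time after injury and the brain side sampled are not stated in the labels. The study's title names bacterial lipopolysaccharide and the TLR4, MyD88 and NF-kB cascade in rats with this injury, and the comparison asks whether gut and brain respond alike. Whether libraries of a group are separate animals is not stated, so p-values measure only the spread among these libraries, and some of it may be technical.

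Hypoxia-ischemia, the loss of oxygen and blood flow in the brain, is known to start cell death, inflammation and later remodelling in the hippocampus, a region that is sensitive to it. Whether the colon was also short of oxygen is not known here. The colon can be reached by circulating signals, among them adrenal glucocorticoids, by nerves and by changes of the gut content. The lining of the colon renews itself from dividing crypt cells and lies inside a wall of smooth muscle. In the hippocampus few cells divide, mainly in the dentate gyrus, and its smooth muscle belongs to blood vessels.

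The depth of sequencing is unknown. Summed over genes, colon libraries held 495505 to 509775 FPKM and hippocampus libraries 452291 to 466432 FPKM. The defining markers fitted the tissue labels. Cdx2, an intestinal transcription factor, had 131 to 156 FPKM in the colon libraries, and Snap25, a protein of nerve terminals, had 456 to 535 FPKM in the hippocampus and 9.60 to 17.0 FPKM in the colon. Some libraries stood apart from their group. HI hippocampus 1 had 4177 FPKM of Ttr, the transthyretin made by the choroid plexus, against 0.391 to 18.2 FPKM in the other hippocampus libraries. Genes of the Y chromosome summed to 53.9 FPKM in HI hippocampus 1 and to at most 0.133 FPKM in the other hippocampus libraries, while they summed to 0.267 FPKM in sham colon 1 and to 59.6 FPKM or more in every other colon library. Libraries of the same number in the 2 tissues were thus not all from the same animals. Hoxb13, a gene of the hind end of the body axis, had 6.70, 41.4 and 63.0 FPKM in HI colon 1, 2 and 3, against 0.466, 0.0 and 11.7 FPKM in sham colon 1, 3a and 3b. Position along the colon, as marked by Hox genes, was therefore not balanced between HI and sham. The names 3a and 3b stand for the sham colon libraries whose column names are alike.

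The measured responses of the 2 tissues were almost uncorrelated across genes. In the hippocampus 645 genes had an unadjusted p under 0.05, against 651 expected at 5%. Spread among so few libraries pulls a correlation toward 0, so a low r does not show that the true responses were unrelated. Over the 13015 genes, Pearson's r between the colon and the hippocampus response was 0.03 and Spearman's rho 0.04, given as a description since genes are not independent replicates and the contrasts share no library. HI stood higher in both tissues for 2667 genes, lower in both for 3946, higher in the colon and lower in the hippocampus for 2561, and lower in the colon and higher in the hippocampus for 3841, so that 50.8% of genes had the same sign. The excess of genes lower in the colon depended on scaling. With median-ratio scaling the colon had 6560 genes higher and 6455 lower, against 5228 higher and 7787 lower as deposited, and the counts in the same order were 3360, 3267, 3200 and 3188. For the tissue difference, 621 genes were then higher and 600 lower with an unadjusted p under 0.05, against 454 higher and 744 lower as deposited. The colon response had an SD of 0.23 across genes and the hippocampus response an SD of 0.18. The median gene stood at a log2 change of -0.04 in the colon, 0.0 in the hippocampus and -0.04 for the tissue difference. In the plot of colon against hippocampus responses the cloud is round, and the genes called lie outside it along different axes.

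**Figure D1:**
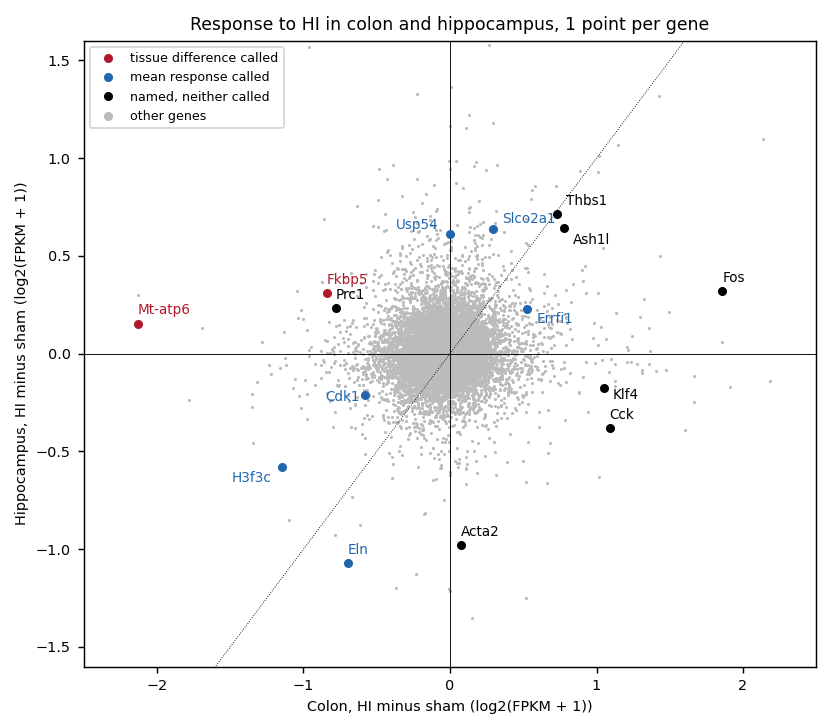
Each point is a gene, with its HI minus sham change in the colon on the x axis and in the hippocampus on the y axis, both as log2(FPKM + 1); the dotted line marks equal responses, and 15 genes lie outside the axes. Mt-atp6 at -2.13 and Fkbp5 at -0.84 on the colon axis are the genes called for the tissue difference (red), and Eln and H3f3c lie in the lower left among those called for the mean response (blue).

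By limma with an adjusted p under 0.05, 2 genes were called for the tissue difference, which is 0.0154% of those tested, and both were lower. For the mean response of both tissues 8 genes were called (0.0615%), 4 higher and 4 lower. In the same fit 24 genes were called in the colon (0.184%), 5 higher and 19 lower, and 1 in the hippocampus (0.00768%). No gene was called in both tissues. Without adjustment, p was under 0.05 for 1198 genes for the tissue difference (9.2%), 1443 for the mean response (11.1%), 1983 in the colon (15.2%) and 645 in the hippocampus (4.96%). Among the 24 genes called in the colon, 14 had the same sign in the hippocampus and 10 the opposite one, beside a same-sign share of 50.8% over all genes. Their median absolute change was 0.77 in the colon and 0.15 in the hippocampus, where the SD over all genes was 0.18. These genes were picked by their colon p in the same fit, so a larger change in the colon follows from the choice and compares nothing. The count for the tissue difference rested on single libraries. It was 25 without sham colon 3b, 1 without sham colon 1 or 3a, and 1 without sham hippocampus 2, HI hippocampus 2 or HI hippocampus 3. The count for the mean response was 58 without sham colon 3b, 25 without HI colon 1, 8 without HI hippocampus 1 and between 2 and 4 without any other single library. The colon count was 340 without sham colon 3b, 502 without HI colon 1, 30 without HI hippocampus 1 and between 2 and 9 without any other single library. The hippocampus count was 0 without sham hippocampus 2, 4 without HI colon 1, 3 without sham hippocampus 3, and 2 without sham hippocampus 1, HI hippocampus 1 or HI hippocampus 3. With the Hox axis as a covariate 1 gene was called for the tissue difference and 2 for the mean response. In the colon 1 of the 24 stayed called with that covariate, and 4 did with a pseudocount of 0.1. Most colon calls given below for single genes were thus lost in those fits.

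The difference between the tissues was led by Mt-atp6 (ENSRNOG00000031979), the subunit of ATP synthase that the mitochondrial genome encodes. It had 1879, 1800 and 2043 FPKM in HI colon, against 7567, 8749 and 8781 FPKM in sham colon. In the hippocampus it had 10724, 10774 and 10133 FPKM with HI, against 10036, 8942 and 9473 FPKM in sham. The groups did not overlap in either tissue, and they were far apart only in the colon. Mt-atp6 fell in the colon by 2.13 on the log2 scale, its hippocampus change was 0.15 ± 0.08 (SE, n = 3 libraries per group), and the tissue difference was -2.28 ± 0.11 (limma adjusted p = 1.19e-06). The difference lay between -2.36 and -2.23 and was called under each of the 24 alternatives. Mt-atp8, another ATP synthase subunit whose reading frame overlaps that of Mt-atp6 on the mitochondrial genome, had 5792, 5266 and 6265 FPKM in HI colon, against 5847, 6732 and 6491 FPKM in sham colon, and these groups overlapped. How reads of the overlap were assigned is not stated, so the levels of both genes are uncertain.

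The other gene called for the tissue difference was Fkbp5 (ENSRNOG00000022523), a co-chaperone of the glucocorticoid receptor that glucocorticoids induce. It had 9.13, 10.9 and 7.41 FPKM in HI colon, against 15.9, 17.4 and 17.6 FPKM in sham colon. Hippocampus values were 16.1, 18.6 and 16.8 FPKM with HI, against 13.9, 13.5 and 13.6 FPKM in sham. Every HI colon library was below every sham colon library, and every HI hippocampus library was above every sham hippocampus library. Fkbp5 fell in the colon by 0.84 on the log2 scale (limma adjusted p = 0.0151), while the hippocampus change was 0.31 ± 0.11 (SE; limma adjusted p = 0.950). The tissue difference was -1.15 ± 0.15 (SE; limma adjusted p = 0.0464), close to the threshold. Its size stayed between -1.27 and -1.02 under the alternatives, but it was called in 9 of 24, and the adjusted p rose to 0.232 without sham hippocampus 2 and to 0.266 with the Hox axis as a covariate. It also missed the threshold without sham colon 1 (0.102), sham colon 3a (0.151), HI colon 1 (0.0749), sham hippocampus 1 (0.0947) or 3 (0.113), and HI hippocampus 1 (0.0679), 2 (0.208) or 3 (0.184).

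**Figure D2:**
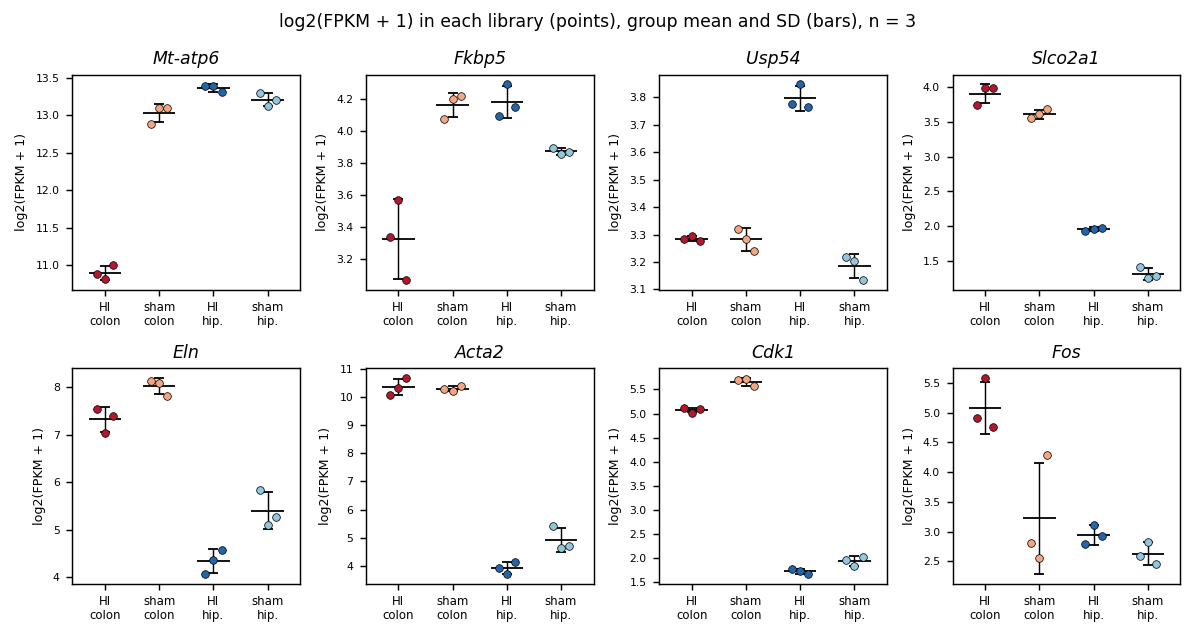
Each panel shows 1 gene as log2(FPKM + 1) in each library, with the group mean and SD (n = 3), HI left of sham for the colon and then the hippocampus. Mt-atp6 is low in HI colon alone, Fkbp5 is lower in HI colon and higher in HI hippocampus than in sham, Usp54 is high in HI hippocampus alone, and Eln is lower with HI in both tissues.

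The rest of the mitochondrial genome moved far less than Mt-atp6. The list held 13 protein genes of that genome, of which 12 were tested. The 11 tested members other than Mt-atp6 all had a negative tissue difference, with a median of -0.17, and 3 of them had an unadjusted p under 0.05 for a lower difference (background 5.72% of all genes). Their median was -0.07 in the colon, where 10 were lower with HI and 0 had an unadjusted p under 0.05, and 0.11 in the hippocampus, where all 11 were higher. None of the 11 was called in the colon or for the difference. Mt-co2, a subunit of cytochrome oxidase, changed by -0.09 in the colon and 0.21 in the hippocampus (difference -0.30 ± 0.11, limma adjusted p = 0.482), and Mt-nd6, a complex I subunit, by -0.24 and 0.15 (difference -0.40 ± 0.16, limma adjusted p = 0.513). Nuclear genes of oxidative phosphorylation showed the opposite sign. Of 41 members, 35 had a positive tissue difference (median 0.07), with medians of 0.02 in the colon and -0.06 in the hippocampus, and 2 had an unadjusted p under 0.05 for a higher difference (background 3.49%). Uqcrc1, a core protein of complex III, changed by 0.13 in the colon and -0.18 in the hippocampus. With the Hox axis as a covariate the nuclear list was evenly split, 20 members higher and 21 lower. Of the 12 mitochondrial members, 2 had a positive difference without sham colon 3b, and 1 without HI hippocampus 1, without HI colon 2 or with median-ratio scaling. The colon median of the 12, -0.07, was -0.02 without sham colon 3b and -0.14 without HI colon 3.

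Genes of the cell cycle were lower with HI in the colon and closer to their sham level in the hippocampus. All 28 tested members of a list of 30 were lower in HI colon, with a median change of -0.45, and 21 of them had an unadjusted p under 0.05 (background 9.83% for lower genes in the colon). In the hippocampus 16 were lower and 12 higher, the median was -0.02, and 2 were lower with an unadjusted p under 0.05 (background 2.07%). Without HI hippocampus 1, however, 23 were lower there and the median was -0.08. In that fit 4 were lower with an unadjusted p under 0.05, beside 207 of all 13015 genes. The tissue difference had a median of -0.44, against -0.04 over all genes tested, and 17 members had an unadjusted p under 0.05 for a lower difference. None was called for it. For the mean response 20 members were lower with an unadjusted p under 0.05 (background 6.83%). In 22 of 28 members every HI colon library was below every sham colon library (background 10.6%), and in 3 this held in the hippocampus (background 6.85%). The median difference was -0.31 with the Hox axis as a covariate and -0.37 without HI hippocampus 1. With that covariate 7 members had an unadjusted p under 0.05 for a lower difference, beside 331 of all 13015 genes. In bulk tissue fewer cells of a type and less RNA per cell cannot be told apart.

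Promoters of Cdk1, Prc1, Cdc20 and Anln, picked by hand from this list, are shown as examples. Each of them holds the CHR letters described below, which were found in 10 of 23 promoters matched for the list. Whether these motifs bear on the low values in HI colon was not tested. In human and mouse cells, genes of late cell cycle phases often carry a CCAAT box and a cell cycle genes homology region (CHR) close to the start. The 250 bases before the start were read 5′ to 3′ from RefSeq on GRCr8, with capitals for CCAAT or its reverse complement ATTGG, and for the CHR letters TTTGAA or TTCGAA or the reverse complement TTCAAA. Matches of the motifs may share a letter. Cdk1 lies at chr20:19265043-19265292 on the plus strand, Prc1 at chr1:143659231-143659480 on the plus strand, Cdc20 at chr5:137255800-137256049 on the minus strand and Anln at chr8:29197514-29197763 on the minus strand.
Cdk1: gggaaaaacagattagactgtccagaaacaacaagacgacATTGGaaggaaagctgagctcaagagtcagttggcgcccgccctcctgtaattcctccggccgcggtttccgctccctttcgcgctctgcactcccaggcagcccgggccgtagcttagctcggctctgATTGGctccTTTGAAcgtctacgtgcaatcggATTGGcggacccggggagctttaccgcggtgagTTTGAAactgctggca
Prc1: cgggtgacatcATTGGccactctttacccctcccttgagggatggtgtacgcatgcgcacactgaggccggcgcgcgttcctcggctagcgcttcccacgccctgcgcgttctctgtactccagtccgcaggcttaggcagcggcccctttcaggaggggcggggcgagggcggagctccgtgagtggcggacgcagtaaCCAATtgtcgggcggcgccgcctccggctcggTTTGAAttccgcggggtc
Cdc20: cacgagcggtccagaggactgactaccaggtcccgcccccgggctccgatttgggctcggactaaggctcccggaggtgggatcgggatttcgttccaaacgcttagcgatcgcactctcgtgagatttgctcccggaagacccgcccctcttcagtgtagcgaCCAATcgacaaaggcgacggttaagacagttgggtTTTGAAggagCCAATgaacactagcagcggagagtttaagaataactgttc
Anln: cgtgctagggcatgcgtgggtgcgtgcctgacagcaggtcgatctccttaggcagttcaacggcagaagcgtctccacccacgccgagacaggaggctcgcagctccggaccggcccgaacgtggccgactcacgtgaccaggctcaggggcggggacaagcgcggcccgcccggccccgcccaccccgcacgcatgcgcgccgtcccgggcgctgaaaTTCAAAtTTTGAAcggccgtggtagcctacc
The CHR letters were found in 10 of 23 promoters matched for the list (43.5%), against 1087 of 9486 promoters of all genes tested (11.5%). CCAAT was found in 17 of 23 (73.9%), against 3329 of 9486 (35.1%), and both in 7 of 23 (30.4%), against 416 of 9486 (4.39%). The Anln window holds the CHR letters and no CCAAT. A match describes letters and does not show that a factor binds there.

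Cdk1, the kinase that drives entry into mitosis, was low in HI in both tissues. It had 33.5, 31.4 and 33.3 FPKM in HI colon, against 50.8, 51.3 and 46.4 FPKM in sham colon. Its hippocampus levels were 2.43, 2.33 and 2.20 FPKM with HI, against 2.89, 2.58 and 3.08 FPKM in sham. Neither pair of groups overlapped. Cdk1 fell by 0.40 on the log2 scale for the mean of both tissues (limma adjusted p = 0.0362) and by 0.58 in the colon (limma adjusted p = 0.0151), while its hippocampus change of -0.21 was not called (limma adjusted p = 0.950).

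Prc1, which bundles microtubules of the central spindle, differed in another way. It had 25.6, 20.6 and 20.2 FPKM in HI colon, against 38.7, 39.9 and 36.9 FPKM in sham colon, and it fell by 0.78 on the log2 scale there (limma adjusted p = 0.0427). With the Hox axis as a covariate 1 gene in all was called in the colon. With HI the hippocampus had 4.24, 3.30 and 3.62 FPKM, against 3.58, 3.32 and 2.25 FPKM in sham, and these groups overlapped. The tissue difference of -1.01 ± 0.19 was not called (limma adjusted p = 0.256). Anln, the anillin of the contractile ring in dividing cells, had 5.81, 6.06 and 5.37 FPKM in HI colon, against 11.8, 11.3 and 10.0 FPKM in sham colon. With HI the hippocampus had 4.43, 4.79 and 5.51 FPKM, against 4.55, 5.59 and 4.56 FPKM in sham. The tissue difference was -0.84 ± 0.15 (limma adjusted p = 0.256), and -0.90 with an adjusted p of 0.0482 without sham colon 3b. It was -0.74 with an adjusted p of 0.781 with the Hox axis as a covariate, and the adjusted p was 0.596 without sham colon 3a. A second anillin-like gene is listed apart as Anlnl1, so reads of alike stretches may be split between them.

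Cdc20, which activates the ubiquitin ligase that starts anaphase, had a tissue difference of -0.67 ± 0.17 (limma adjusted p = 0.360) and Aurkb, a mitotic kinase, of -0.51 ± 0.14 (limma adjusted p = 0.385). Mcm5, a subunit of the replicative helicase, changed by -0.10 in the colon and -0.32 in the hippocampus, Mcm2 by -0.07 and -0.13, and Mcm6 by -0.10 and -0.14; these were picked after their values were seen. By these values the helicase members were slightly lower with HI in both tissues and their tissue differences were not called.

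**Figure D3:**
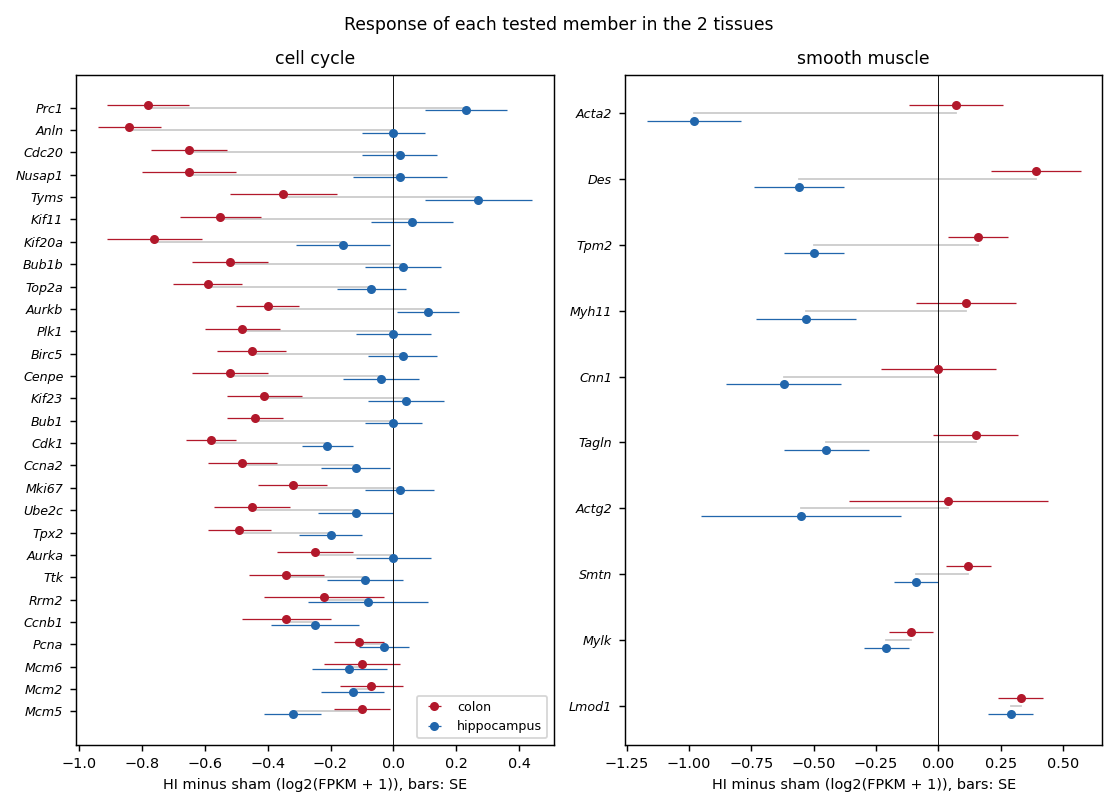
Points give HI minus sham as log2(FPKM + 1) in the colon (red) and the hippocampus (blue) for the tested members of the cell cycle and the smooth muscle list, with SE as bars. Colon points lie left of 0 for all 28 cell cycle genes and hippocampus points lie left of 0 for 9 of 10 smooth muscle genes.

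Smooth muscle genes showed the converse, lower with HI in the hippocampus and at or above sham in the colon. All 10 tested members of a list of 12 had a positive tissue difference, with a median of 0.61, and 5 had an unadjusted p under 0.05 for a higher difference (background 3.49%). The median was 0.12 in the colon, where 9 were higher, and -0.52 in the hippocampus, where 9 were lower and 7 of them had an unadjusted p under 0.05 (background 2.07%). With the Hox axis as a covariate the colon median was -0.01, with 5 members higher and 5 lower. Acta2, the smooth muscle actin, had 1085, 1286 and 1626 FPKM in HI colon, against 1237, 1178 and 1335 FPKM in sham colon, and these groups overlapped. The hippocampus libraries had 14.2, 12.2 and 16.6 FPKM with HI, against 41.4, 23.9 and 24.8 FPKM in sham, without overlap. Its tissue difference was 1.05 ± 0.27 (limma adjusted p = 0.360).

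Des, the intermediate filament desmin, changed by 0.39 in the colon and -0.56 in the hippocampus, Tpm2, a tropomyosin, by 0.16 and -0.50, and Tagln, an actin-binding protein, by 0.15 and -0.45; none was called for the difference. Lmod1, which nucleates actin filaments in smooth muscle, was the exception, at 0.33 in the colon and 0.29 in the hippocampus, and it was picked after its values were seen. Sham hippocampus 1 carried much of the contrast. The mean of the list in HI hippocampus 1, 2 and 3 was -0.28, -0.52 and -0.46 relative to the sham mean, against 0.42, -0.23 and -0.20 in sham hippocampus 1, 2 and 3. Without sham hippocampus 1 the median tissue difference was 0.33 and the hippocampus median was -0.24. In that fit 2 members were lower in the hippocampus with an unadjusted p under 0.05, beside 231 of all 13015 genes. The amount of vessel in that library was not tested.

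Extracellular matrix genes were lower with HI in both tissues. Of 26 tested members of a list of 30, 23 were lower in the colon (median -0.19, 10 with an unadjusted p under 0.05, background 9.83%) and 22 were lower in the hippocampus (median -0.14, 8 with an unadjusted p under 0.05, background 2.07%). The sign was the same in both tissues for 21 members, and the median tissue difference was -0.01. Eln, the elastin of arteries and gut wall, had 185, 130 and 166 FPKM in HI colon, against 281, 272 and 225 FPKM in sham colon. In the hippocampus it had 15.8, 19.5 and 22.8 FPKM with HI, against 56.0, 33.4 and 37.3 FPKM in sham. The groups overlapped in neither tissue, and Eln fell by 0.88 on the log2 scale for the mean of both (SE 0.13, limma adjusted p = 0.0450).

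Lum, the collagen-binding lumican, changed by -0.40 in the colon and -0.43 in the hippocampus, and Col1a1, a chain of type I collagen, by -0.35 and -0.50; both were picked after their values were seen, and each had an unadjusted p under 0.05 in either tissue. Members with the largest tissue differences were Fn1, fibronectin, at -0.38 ± 0.12, and Col3a1, a chain of type III collagen, at 0.46 ± 0.16, neither called (limma adjusted p = 0.414 and 0.449). In the hippocampus the mean of the list was -0.17, -0.25 and -0.21 in the HI libraries and 0.06, -0.02 and -0.04 in the shams, which did not overlap. In the colon it was -0.31, -0.20 and -0.07 in HI and 0.01, -0.06 and 0.05 in sham. Pericyte markers had a median of -0.23 in the colon, where 5 of 11 were lower with an unadjusted p under 0.05 (background 9.83%). Their hippocampus median was -0.07, and there 1 was lower (background 2.07%) and 1 higher (background 2.88%) with an unadjusted p under 0.05. Of the 11, 8 were lower with HI in the hippocampus, and 8 had the same sign in both tissues. Higd1b changed by -0.60 in the colon and -0.07 in the hippocampus, and Pdgfrb by -0.35 and -0.07. Cspg4, a surface proteoglycan of pericytes, changed by -0.29 in the colon and 0.04 in the hippocampus. Abcc9, a subunit of a potassium channel of pericytes, changed by -0.26 and 0.54.

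Immediate early genes, which are switched on within minutes of a stimulus, stood higher with HI in both tissues, and more so in the colon. Of 23 tested members of a list of 25, 22 were higher in the colon (median 0.39) and 15 had an unadjusted p under 0.05 (background 5.4%). In the hippocampus 18 were higher (median 0.25) and 6 were higher with an unadjusted p under 0.05 (background 2.88%). This number was 1 without HI hippocampus 1, beside 234 of all 13015 genes. It was also 1 without sham hippocampus 1, beside 274 of all genes. The HI libraries were all above sham for 8 members in the colon (background 5.33%) and for 8 in the hippocampus (background 6.52%). All 23 stood higher for the mean response, 16 with an unadjusted p under 0.05 (background 4.26%). The median tissue difference was 0.23, and 18 members were positive; it was 0.42 without HI colon 3 and 0.39 without sham colon 3b. Fos, a subunit of the AP-1 factor, had 29.0, 46.9 and 26.1 FPKM in HI colon, against 6.05, 4.92 and 18.6 FPKM in sham colon. Hippocampus values were 5.94, 7.69 and 6.61 FPKM with HI, against 5.03, 6.13 and 4.50 FPKM in sham. The colon groups did not overlap and the hippocampus groups did. The tissue difference of Fos was 1.54 ± 0.50 (limma adjusted p = 0.431), and 2.07 with an adjusted p of 0.0187 without sham colon 3b. It was 0.67 with an adjusted p of 1.0 with the Hox axis as a covariate, and 1.21 with an adjusted p of 0.820 without sham colon 3a.

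Klf4, a transcription factor of the gut lining, changed by 1.05 in the colon and -0.18 in the hippocampus, neither of them called. It had 178, 241 and 217 FPKM in HI colon, against 81.3, 81.4 and 155 FPKM in sham colon, while the hippocampus had 2.90, 2.92 and 2.62 FPKM with HI, against 3.70, 3.06 and 3.17 FPKM in sham. The groups overlapped in neither tissue. Over all genes, HI was wholly above sham in the colon for 5.33% and wholly below sham in the hippocampus for 6.85%. The tissue difference of Klf4 was 1.23 ± 0.29 (limma adjusted p = 0.360). It was 1.54 with an adjusted p of 0.00230 without sham colon 3b, and 0.63 with an adjusted p of 1.0 with the Hox axis as a covariate. Klf2, which acts in vessel lining, changed by 0.34 and -0.14, and Jun, another AP-1 subunit, by 0.36 and -0.11. Arc and Npas4, genes of neuronal activity picked after their values were seen, had the reverse order, at -0.06 and 0.09 in the colon and 0.50 and 0.45 in the hippocampus. Relative to the sham mean, the list averaged 0.26 in HI colon 3 and 0.25 in sham colon 3b, so the colon groups almost met.

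Glucocorticoid-responsive genes had medians above 0 in both tissues, whereas Fkbp5 was lower with HI in the colon and higher in the hippocampus. Of a list of 17, 16 were tested. The 15 other than Fkbp5 had a median of 0.19 in the colon, where 10 were higher and 5 lower. Of the higher ones, 6 had an unadjusted p under 0.05 (background 5.4%). Their hippocampus median was 0.23, and 13 were higher there, 5 of them with an unadjusted p under 0.05 (background 2.88%). With Fkbp5 included, the colon median was 0.15, and it was 0.36 without sham colon 3b, 0.07 without HI colon 2 and 0.04 with the Hox axis as a covariate. The tissue difference of the 16 had a median of -0.15, with 7 positive and 9 negative. With the Hox covariate 6 members had an unadjusted p under 0.05 for a lower difference, beside 331 of all 13015 genes. For a higher difference 0 members had one, beside 286 of all genes. In the hippocampus the mean of the list was 0.31, 0.29 and 0.26 in the HI libraries, against -0.02, -0.02 and 0.04 in the shams. Errfi1, an inhibitor of the EGF receptor, had 47.5, 48.8 and 46.4 FPKM in HI colon, against 30.6, 30.3 and 37.7 FPKM in sham colon. Its hippocampus levels were 16.1, 17.3 and 16.8 FPKM with HI, against 14.1, 14.2 and 14.1 FPKM in sham. The groups overlapped in neither tissue, and Errfi1 rose for the mean response by 0.38 ± 0.06 (limma adjusted p = 0.0440).

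Sult1a1, a sulfotransferase, changed by 0.0 in the colon and 0.95 in the hippocampus, where it had 9.71, 8.19 and 9.61 FPKM with HI, against 4.18, 3.46 and 5.32 FPKM in sham. Its tissue difference of -0.95 ± 0.21 was not called (limma adjusted p = 0.360). Zbtb16, a transcription factor induced by glucocorticoids, changed by -0.36 in the colon and 0.23 in the hippocampus, the signs of Fkbp5, with overlap in both tissues. Clock genes had medians of 0.15 in the colon and 0.09 in the hippocampus over 16 tested members of 18. Npas2, a partner of the clock factor Arntl, changed by 1.24 and 0.09, and Arntl by 0.44 and -0.06, with tissue differences of 1.15 ± 0.38 and 0.50 ± 0.15 that were not called (limma adjusted p = 0.446 and 0.418). The difference of Npas2 was 0.29 with the Hox axis as a covariate.

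**Figure D4:**
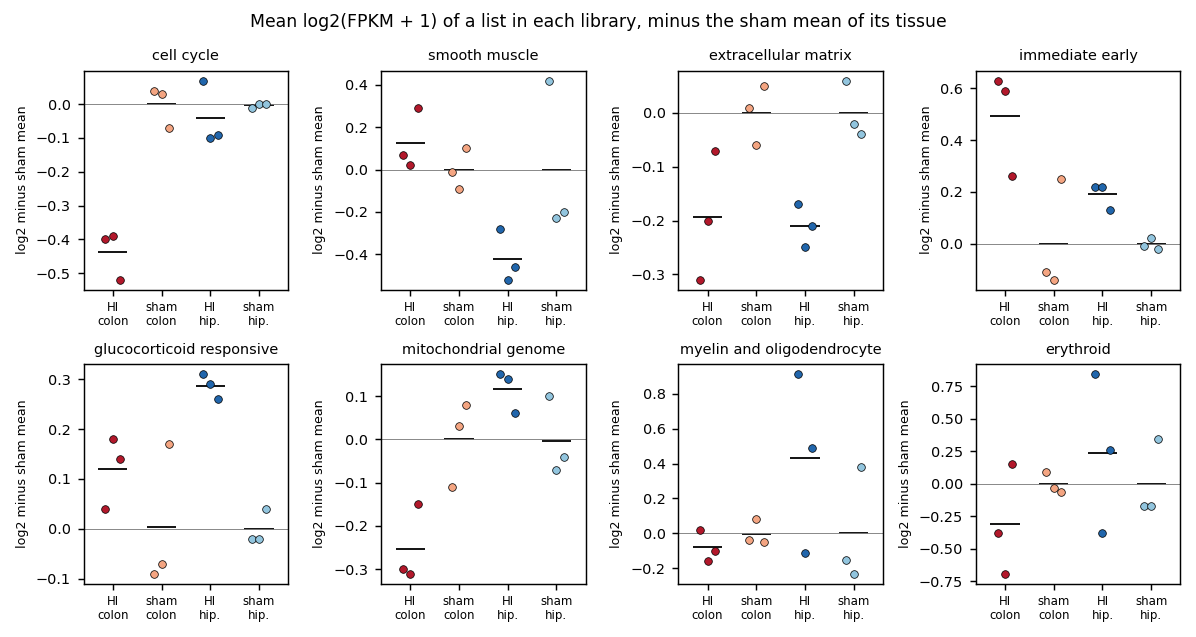
Points give the mean log2(FPKM + 1) of a list in each library minus the sham mean of its tissue, HI left of sham, with the group mean as a bar. The cell cycle mean lies between -0.52 and -0.39 in HI colon, the smooth muscle mean is high in sham hippocampus 1 at 0.42, and the extracellular matrix mean is below 0 in all HI libraries.

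Other genes called for the mean response were Slco2a1, Usp54 and H3f3c, besides Cdk1, Eln, Errfi1, Mt-atp6 and the provisionally named RGD1562420. Slco2a1, a prostaglandin transporter, had 12.4, 14.8 and 14.8 FPKM in HI colon, against 10.7, 11.2 and 11.8 FPKM in sham colon, and 2.79, 2.89 and 2.94 FPKM in HI hippocampus, against 1.67, 1.38 and 1.42 FPKM in sham hippocampus. The groups overlapped in neither tissue, and Slco2a1 rose for the mean response by 0.46 ± 0.07 (limma adjusted p = 0.0365). RGD1562420 rose by 0.86 for the mean response, with 0.95 in the colon and 0.77 in the hippocampus (limma adjusted p = 0.00103).

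H3f3c, a histone H3.3 gene with near-identical copies that could share its reads, fell by 0.86 for the mean response (limma adjusted p = 0.0384). It had 70.9, 62.5 and 71.3 FPKM in HI colon, against 142, 156 and 157 FPKM in sham colon. The hippocampus libraries had 30.4, 57.4 and 32.4 FPKM with HI, against 59.3, 56.0 and 58.5 FPKM in sham, where HI hippocampus 2 lay among the shams. Usp54, a protein of the ubiquitin protease family, had 8.74, 8.81 and 8.70 FPKM in HI colon, against 9.0, 8.75 and 8.45 FPKM in sham colon, and 12.7, 13.4 and 12.6 FPKM in HI hippocampus, against 8.31, 8.20 and 7.78 FPKM in sham hippocampus. It was unequal between the tissues, with 0.0 in the colon and a rise of 0.61 ± 0.07 in the hippocampus (limma adjusted p = 0.0123), and its tissue difference of -0.61 ± 0.10 was not called (limma adjusted p = 0.146). The hippocampus call of Usp54 was lost without sham hippocampus 2 or HI hippocampus 2. It was also lost with a separate spread per tissue, with a replicate block and with either removal of 2 libraries at once. The mean response of Usp54, H3f3c, Eln, Errfi1, Slco2a1 and Cdk1 was called in 7 to 11 of 24 alternatives each, and that of none of them with the Hox axis as a covariate.

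An unadjusted p under 0.05 in both tissues was reached by 116 genes, which is 5.85% of the genes that reached it in the colon, against 4.96% of all genes in the hippocampus. Of these, 77 had the same sign, 32 higher and 45 lower, and 39 had opposite signs, 16 higher in the colon alone and 23 higher in the hippocampus alone; 66.4% had the same sign, against 50.8% of all genes. The following were named after their values were seen. Thbs1, the matrix protein thrombospondin, changed by 0.73 in the colon and 0.71 in the hippocampus, and Ash1l, a histone methyltransferase, by 0.78 and 0.64. Kcne5, a potassium channel subunit, changed by -0.67 and -0.73.

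Among those of opposite sign, Tspo, a protein of the outer mitochondrial membrane used as a marker of reactive glia, had 20.9, 15 and 18.8 FPKM in HI colon, against 28.0, 26.3 and 24.4 FPKM in sham colon. In the hippocampus it had 3.28, 2.81 and 2.41 FPKM with HI, against 2.18, 1.81 and 1.55 FPKM in sham. The groups overlapped in neither tissue, and the tissue difference of -0.94 ± 0.18 was not called (limma adjusted p = 0.342). Htra1, a secreted protease, changed by -0.33 in the colon and 0.55 in the hippocampus, Slc19a3, a thiamine transporter, by -0.53 and 0.65, and Zeb2, a transcription factor of neural crest and glia, by -0.40 and 0.25. Ccnd1, cyclin D1 of the G1 phase, changed by 0.22 and -0.20.

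Of 43 gene lists, 39 had at least 5 tested members. The medians of the 2 tissues had the same sign in 19 lists, 10 higher and 9 lower, and opposite signs in 20, of which 5 were higher in the colon and 15 higher in the hippocampus. With median-ratio scaling the same sign was seen in 22 lists and opposite signs in 17, of which 6 were higher in the colon and 11 in the hippocampus, and with the Hox axis as a covariate in 29 and 10. The medians were at least 0.2 apart in 8 lists.

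**Figure D5:**
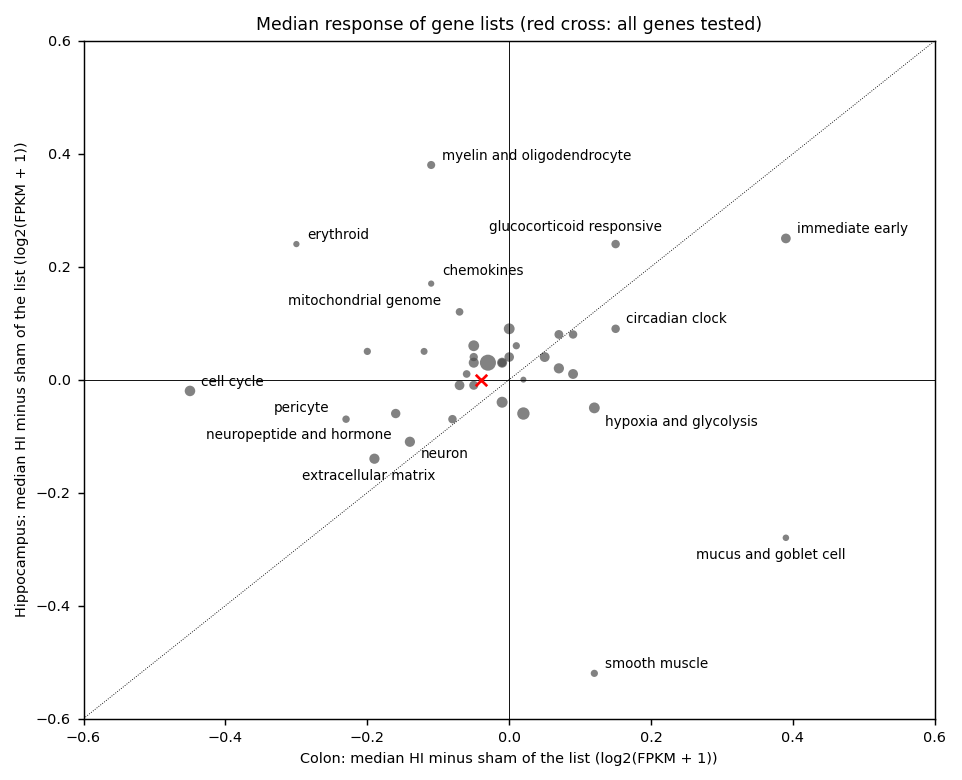
Each point is a gene list, with its median HI minus sham in the colon on the x axis and in the hippocampus on the y axis, as log2(FPKM + 1), and its size growing with the number of tested members; the choroid plexus list at 1.6 on the hippocampus axis is not drawn. Cell cycle lies far left, smooth muscle far down, immediate early genes up and to the right, and extracellular matrix in the lower left.

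Genes of hypoxia and glycolysis were slightly higher in HI colon and slightly lower in HI hippocampus. Of 30 members, 26 had a positive tissue difference (median 0.17), with medians of 0.12 in the colon, where 25 were higher, and -0.05 in the hippocampus, where 18 were lower. Car9, a carbonic anhydrase induced by the hypoxia factor HIF-1, had 33.3, 32.1 and 28.7 FPKM in HI colon, against 16.1, 18.8 and 18.8 FPKM in sham colon, and rose there by 0.77 on the log2 scale (limma adjusted p = 0.0381). It stayed under 1 FPKM in the hippocampus, at 0.623, 0.679 and 0.281 FPKM with HI, against 0.609, 0.675 and 0.410 FPKM in sham. Its tissue difference was 0.82 ± 0.17 (limma adjusted p = 0.360). The glycolytic enzymes Pkm, Eno1 and Gpi had tissue differences of 0.53 ± 0.19, 0.38 ± 0.14 and 0.25 ± 0.09 that were not called. With the Hox axis as a covariate the median of the list was 0.06 for the tissue difference and -0.02 in the colon. In that fit no gene was called as higher in the colon, so the colon call of Car9 was lost.

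Genes of the TLR4 pathway, the subject of the study's title, showed no common tissue difference. Of 24 tested members of a list of 31, 12 had a positive and 12 a negative tissue difference, with a median of 0.01. The medians were 0.05 in the colon and 0.04 in the hippocampus. Tlr4, the receptor of lipopolysaccharide, had 10.9, 15.4 and 14.6 FPKM in HI colon, against 3.82, 4.36 and 13.5 FPKM in sham colon. In the hippocampus it was under 1 FPKM, at 0.697, 0.324 and 0.436 FPKM with HI, against 0.287, 0.116 and 0.185 FPKM in sham. The colon groups overlapped through sham colon 3b. Of the 14266 genes listed for the hippocampus, 16 had a lower mean than Tlr4, and its row was the 1 row whose deposited log2 change and fold change stood in each other's columns, so its hippocampus values are uncertain. The tissue difference built on them was 0.70 ± 0.45 (limma adjusted p = 0.624). It was 0.16 with an adjusted p of 0.944 with a pseudocount of 0.1, and -0.20 with the Hox axis as a covariate. It was 0.41 without sham colon 1, 1.21 with an adjusted p of 0.0621 without sham colon 3b, and 1.31 with an adjusted p of 0.0408 without HI hippocampus 1 and sham colon 3b.

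Irak2, a kinase of the pathway, changed by 0.40 in the colon and 0.02 in the hippocampus, with a tissue difference of 0.38 ± 0.11 (limma adjusted p = 0.414). Myd88, the adaptor, had a difference of 0.19 ± 0.15. The NF-kB subunits Nfkb1 and Rela stood at 0.03 ± 0.12 and 0.07 ± 0.12, and the inhibitor Nfkbia, itself a target of NF-kB, at 0.01 ± 0.18. Cd14, the coreceptor, stood at -0.14 ± 0.21. None of these was called, which does not show that the tissues responded alike. Ly96, Lbp, Tnf and Il1b were not analysed here.

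Neuropeptides and gut hormones, which both tissues make, had no common tissue difference, with a median of -0.09 over 21 tested members of 27. Of the 21, 18 were lower with HI in the colon (median -0.16) and 17 in the hippocampus (median -0.06). The sign was the same in both tissues for 14 and opposite for 7. With the Hox axis as a covariate the colon median was 0.05, with 12 higher and 9 lower. Cck, the peptide cholecystokinin, had 8.79, 12.2 and 9.38 FPKM in HI colon, against 3.49, 3.19 and 6.44 FPKM in sham colon. In the hippocampus, where interneurons make it, it had 81.8, 90.3 and 104 FPKM with HI, against 109, 119 and 131 FPKM in sham. The groups overlapped in neither tissue and stood in opposite order. Cck rose in the colon by 1.09 ± 0.19 (limma adjusted p = 0.0492), and its hippocampus change was -0.38 ± 0.19 (limma adjusted p = 0.984). The tissue difference was 1.47 ± 0.27 (limma adjusted p = 0.256), 1.73 with an adjusted p of 0.00267 without sham colon 3b, and 0.99 with an adjusted p of 0.725 with the Hox axis as a covariate.

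Vip, a peptide of enteric neurons, had 21.5, 15.5 and 21.3 FPKM in HI colon, against 28.7, 40.2 and 33.6 FPKM in sham colon, and fell there by 0.78 on the log2 scale (limma adjusted p = 0.0415). As said for Prc1, 1 gene in all was called in the colon with the Hox axis as a covariate. Hippocampus values were 9.65, 10.4 and 11 FPKM with HI, against 10.2, 10.8 and 11 FPKM in sham. The tissue difference was -0.75 ± 0.19 (limma adjusted p = 0.360). Nts, neurotensin, had a difference of -2.43 ± 1.12, which turned to 0.11 with the Hox axis as a covariate, and Grp, the gastrin-releasing peptide, of 0.71 ± 0.36.

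Some lists moved with 1 library. Over 9 tested choroid plexus genes the median tissue difference was -1.61 and the hippocampus median 1.6, and without HI hippocampus 1 these were -0.34 and 0.05. Over 14 tested myelin and oligodendrocyte genes the median difference was -0.45, with -0.11 in the colon and 0.38 in the hippocampus, and without HI hippocampus 1 the difference was -0.25 and the hippocampus median 0.21, with 13 members still negative for the difference and all 14 still higher in the hippocampus. The difference was -0.71 without HI hippocampus 2. Their mean in HI hippocampus 1, 2 and 3 was 0.91, -0.11 and 0.49 relative to the sham mean, against -0.15, -0.23 and 0.38 in sham hippocampus 1, 2 and 3, so the groups overlapped. Sox10, a transcription factor of oligodendrocytes and enteric glia, had a tissue difference of -0.41 ± 0.21 (limma adjusted p = 0.567). Over 6 tested erythroid genes the median difference was -0.54, and -0.24 without HI hippocampus 1. The part of choroid plexus, myelin and blood RNA in the other tissue differences was not tested.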

How the data were processed

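RNA of colon and hippocampus from HI and sham rats was sequenced in 12 libraries. Per the labels' protocols, TRIzol was used for extraction, and mRNA was purified and amplified. No source used here gives the aligner, quantifier, build or annotation. The authors deposited 1 table of FPKM per tissue, per the file headers. Ratios of low values repeated no whole-read steps, so depth is unknown and no counting interval is given.

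Groups were taken from the treatment and tissue labels. Column names do not tell which of 2 sham colon columns, here 3a and 3b, is which sample. limma 3.58.1 in R 4.3.3 (eBayes with a trend) was fitted to log2(FPKM + 1) of the 12 libraries as means of 4 groups, with Benjamini-Hochberg adjustment over 13015 genes and a threshold of 0.05. A pseudocount of 1 understates changes of low genes. The authors' 2 tables may differ in normalization, so only changes within a table were compared. Errors are SE. The fit was tested on simulated data.

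Members and gene lists were chosen with earlier results of these data known. Named genes were up to 12 per direction called for the difference, up to 8 per direction called for the mean response, up to 4 members per described list with the smallest p of the difference, and genes of the TLR4 pathway; others are marked in the text. Lists have counts and medians and no test. Alternatives were another pseudocount, filters, median-ratio scaling, a separate spread per tissue, library weights, leaving out each library, a replicate block, and covariates for Hox genes (the position along the colon), myelin genes and Y chromosome genes. Removal of 2 libraries at once was added after seeing the data.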

Additional observations from a re-analysis of the deposited data

Results flagged for a closer look

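The test of the difference between the tissues singled out Mt-atp6, whose response to HI differed by -2.28 on the log2 scale (colon -2.13, hippocampus 0.15), and Fkbp5, whose response differed by -1.15 (colon -0.84, hippocampus 0.31). The causes were not tested.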

How the results depend on the processing

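The number of genes called for the tissue difference was 2. It was 1 with a pseudocount of 0.1, with median-ratio scaling, and with the Hox or Y covariate, 8 with the myelin covariate, and between 1 and 25 when a library was left out. The Y covariate was unbalanced between HI and sham to the same degree in both tissues. It could therefore change the error of a tissue difference but not its size, and is no check on that size. For the mean response the number was 8. It was 14 with a separate spread per tissue, 55 with library weights, 2 with each covariate, and between 2 and 58 without a library. In the colon the number was 24. It was 4 with a pseudocount of 0.1, 14 with at least 1 FPKM on average in each tissue, 15 with median-ratio scaling, 13 with a separate spread, 116 with weights, 1 with the Hox covariate, 3 with the Y covariate, and between 2 and 502 without a library. In the hippocampus the number was 1. It was 4 with a pseudocount of 0.1, 7 with weights, 2 with the Hox covariate, and between 0 and 4 without a library. With a separate spread or without HI hippocampus 2 it was again 1, but the gene called was not Usp54. Without HI hippocampus 1 and sham colon 3b, an alternative added after seeing the data, the numbers were 34, 47 and 369 for the difference, the mean and the colon. Without HI hippocampus 1 and sham colon 1, also added, they were 2 for the mean and 6 for the colon.

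With a replicate block within the hippocampus the numbers were 1, 2, 2 and 0 for the difference, the mean, the colon and the hippocampus. Deviations of same-numbered libraries correlated between -0.10 and 0.06, so the numbers gave no pairing.

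Some differences turned sign, among them those of Nts (-2.43 ± 1.12) and Tlr4 (0.70 ± 0.45), which were not small. With the Hox covariate Nts turned to 0.11, Tlr4 to -0.20, Cd14 to 0.06 and Nfkbia to -0.03. With the myelin covariate Hbb turned to 0.03, Hba-a2 to 0.01 and Nfkbia to -0.02. Nfkbia also turned to -0.02 with weights and to -0.10 and -0.06 in the added alternatives. Without a library, Nfkb1 lay between -0.02 and 0.09 and Nfkbia between -0.11 and 0.10. Over gene lists and alternatives, 860 medians moved by less than the spread between libraries and 74 by more. The causes were not tested.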

Other observations

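Genes of mucus and goblet cells had opposite medians, 0.39 in the colon and -0.28 in the hippocampus over 7 tested members of 19. Clca1, a protein secreted by goblet cells and picked after its values were seen, changed by 2.70 in the colon. Every HI colon library was above every sham colon library in 0 of the 7 members (background 5.33%). In the colon 0 members were called. With the Hox axis as a covariate the median of the list in the colon was -0.19. Complement genes had medians of 0.07 in the colon and 0.08 in the hippocampus over 18 tested members. The hippocampus median was 0.0, with 9 higher and 9 lower, without HI hippocampus 1, and the colon median was 0.02 without sham colon 3b or without HI colon 3. Cd59, which blocks the membrane attack complex, changed by 0.98 and 0.08, with a tissue difference of 0.90 ± 0.32 (limma adjusted p = 0.464); it was 0.23 with the Hox axis as a covariate and 1.23 with an adjusted p of 0.0300 without sham colon 3b. C3, the central component, changed by -1.12 and -0.02, and its tissue difference lay between -1.58 without sham colon 3b and -0.22 with the Hox axis as a covariate. C5ar1, the receptor of the C5a fragment, changed by 0.14 and -0.28.

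Microglia and macrophage genes had medians near 0 in the colon and of 0.04 in the hippocampus over 22 members. Ctss, a lysosomal protease, changed by -0.31 in the colon and 0.39 in the hippocampus, and Cd68, a lysosomal glycoprotein, by -0.05 and 0.36. Splicing factors changed little, but 25 of 30 had opposite signs in the tissues, with medians of -0.05 in the colon and 0.06 in the hippocampus, and 0.02 in the colon with the Hox axis as a covariate. Hnrnpa1, an RNA-binding protein of spliceosomes, had the smallest p among them, with a tissue difference of -0.40 ± 0.10 (limma adjusted p = 0.360). None of these lists held a gene called for the tissue difference.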
